A study of Mus musculus with 16 samples.

Results

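Gata4hi and Sox2hi epithelial cells of the embryonic mouse stomach were compared at E11.5, the earlier of the stages sequenced from the epithelium. The comparison rests on 2 of the 16 libraries of the series, 1 of each population. It covers the protein-coding genes that reached 1 FPKM in either library, 11837 of the 21888 protein-coding genes listed. FPKM is a count of sequenced fragments corrected for the length of the transcript and the size of the library. Embryos carried an EGFP reporter knocked into the Sox2 locus and a td Tomato reporter knocked into the Gata4 locus. EpCAM-positive epithelial cells were sorted by both reporters. The E11.5 Sox2hi cells were taken from the gate for EGFP-positive, td Tomato-negative cells and the E11.5 Gata4hi cells from that for EGFP-positive, td Tomato-high cells, so both populations expressed the Sox2 reporter. Because each reporter is a knock-in, its fluorescence follows the activity of that locus. No source states how many embryos entered a library. At E13.5 the same strain gave 3 Sox2hi, 2 Sox2midGata4mid and 3 Gata4hi libraries, which share no library with E11.5 and serve here as the replicated reference.

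The stomach epithelium is divided along its length into a proximal part, which becomes the keratinized squamous lining of the forestomach, and a distal part, which becomes the glandular columnar lining. SOX2 is a transcription factor of the whole early foregut, and GATA4 is a zinc-finger factor of the distal stomach and intestine. Fibroblast growth factors from the mesenchyme act on epithelial FGF receptors and, through the MAPK/ERK cascade, induce ETV and Sprouty genes. WNT, hedgehog and retinoic acid signals also pattern the gut tube.

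The sorted genes were higher in the library whose label names them, and the gate named td Tomato-negative still held the reporter transcript. Gata4 (ENSMUSG00000021944.15, chromosome 14, 63198922 to 63271692 on GRCm38) was at 25.9 FPKM in the E11.5 Sox2hi library and at 229 FPKM in the Gata4hi library, and dTomato was at 45.4 and 489 FPKM. Sox2 was at 87.5 and 69.1 FPKM and EGFP at 254 and 216 FPKM, so both lay within 2-fold. The E11.5 Sox2hi library held more Gata4 than the E13.5 Sox2hi libraries, which were at 3.21, 6.12 and 7.26 FPKM. Nkx6-3, the second marker of the Gata4hi cells, was at 0.0495 and 34.1 FPKM. These genes belong to the sort or to the definition of the population and are given as a check. The epithelial genes Epcam, at 200 and 226 FPKM, and Cdh1, at 94.8 and 101 FPKM, were alike in both. FPKM values summed to 541950 in the Sox2hi library and 577293 in the Gata4hi library. The depth of these libraries, read from the steps of low FPKM values, was 0.463 and 0.758 of that of E13.5 Sox2hi replicate 1, against 0.719 to 1.07 in the other E13.5 libraries of the Sox2hi, Sox2midGata4mid and Gata4hi cells. A low value in the E11.5 Sox2hi library is therefore the least precise.

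Differences are given as Gata4hi minus Sox2hi on log2(FPKM + 1), a scale on which the change of low genes is understated, and without a test, because 1 library a group leaves no spread. Of the 11837 genes, 470 (3.97%) were at least 2-fold higher in Gata4hi cells and 339 (2.86%) at least 2-fold lower. These shares belong beside every E11.5 count of list members given below. The lists were chosen with earlier results of these data known, so their counts are a description. At 4-fold the counts were 81 and 57, and at 8-fold 25 and 10. The median difference over all genes was 0.033. Together 6.83% of genes were past 2-fold in either direction. Between replicate libraries of 1 population at E13.5 that share was 1.37% to 2.33%, and between a Sox2hi and a Gata4hi library at E13.5 it was 10.8% to 13.1%. The E11.5 pair thus lay farther apart than any replicate pair and closer than any pair of opposite populations 2 days later. The Pearson correlations over genes were ordered the same way, at 0.952 for the E11.5 pair, 0.975 to 0.983 for replicates and 0.905 to 0.917 for opposite populations at E13.5. In sorted bulk samples, fewer cells that express a gene and less RNA per cell cannot be told apart.

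**Figure D1:**
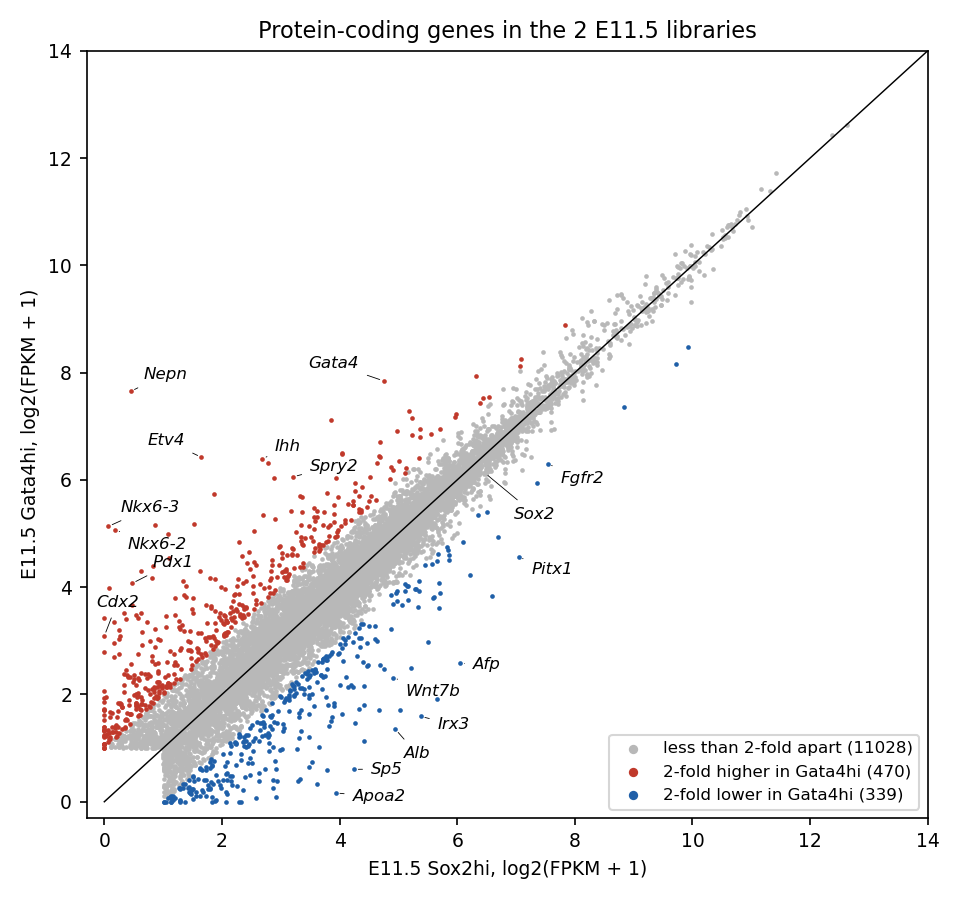
Level of each of the 11837 protein-coding genes in the E11.5 Sox2hi library (horizontal axis) and the E11.5 Gata4hi library (vertical axis), both as log2(FPKM + 1). The 470 genes at least 2-fold higher in Gata4hi cells are red, the 339 at least 2-fold lower are blue, and the diagonal marks equal levels; Nepn, Nkx6-3, Nkx6-2 and Etv4 lie farthest above it.

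Of 7 homeobox and bHLH factors of the distal stomach, duodenum and pancreas at 1 FPKM or more, 4 were at least 2-fold higher in Gata4hi cells and none lower. Without the marker Nkx6-3 the count was 3 of 6, with a median of 1.61. Over all genes compared, 3.97% were at least 2-fold higher and 2.86% lower. Nkx6-3 (ENSMUSG00000063672.7, chromosome 8, 23153269 to 23158948), known from the antrum, differed by 5.06, and its relative Nkx6-2 (ENSMUSG00000041309.17, chromosome 7, 139579376 to 139582797) was at 0.138 and 32.5 FPKM, a difference of 4.88. Both genes were nearly silent in the E13.5 Sox2hi libraries, where Nkx6-2 did not exceed 0.208 FPKM, and were at 47.1 to 75.5 and 12.5 to 25.9 FPKM in the E13.5 Gata4hi libraries. Pdx1, which is needed for the pancreas and acts in duodenum and antrum, was at 0.387 and 15.8 FPKM. Cdx2, the homeodomain factor of the intestine, was listed at 0 in the Sox2hi library and at 7.51 FPKM in the Gata4hi library. At E13.5 Cdx2 was at 0.768 to 1.13 FPKM in Gata4hi cells and listed at 0 in all 3 Sox2hi libraries, so its level in the E11.5 Gata4hi library stood above those of the E13.5 Sox2hi and Gata4hi libraries. The other 3 members did not differ by 2-fold, Mnx1 at 29.3 and 16.1 FPKM, Isl1 at 7.11 and 6.33 FPKM and Sox9 at 20.3 and 22.3 FPKM. The other intestinal markers Cdx1, Fabp1, Fabp2, Isx, Hoxb8, Cdh17 and Atoh1 did not reach 1 FPKM at E11.5.

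Columnar transcription factors were mostly higher in Gata4hi cells. Of 19 members at 1 FPKM or more, 12 were at least 2-fold higher and none lower, with a median difference of 1.28 against 0.033 for all genes. The list holds Gata4, on which the cells were sorted, and without it 11 of 18 were higher, with a median of 1.24. Hnf4a, a nuclear receptor of gut and liver epithelium, was at 10.8 and 43.4 FPKM, and its relative Hnf4g at 0.819 and 6.39 FPKM. All 3 ONECUT homeodomain genes were higher, Onecut1 at 14.7 and 50.3 FPKM, Onecut2 at 0.287 and 9.63 FPKM, and Onecut3 at 0.121 and 9.24 FPKM. The secretory-lineage factors Spdef, at 1.62 and 13.1 FPKM, and Creb3l1, at 0.189 and 8.16 FPKM, followed. Klf5, at 61.5 and 143 FPKM, was the most abundant of the 12 after Gata4. At E13.5, limma called 13 of the 17 members tested higher in Gata4hi cells and 1 lower, and 12 of 16 higher without Gata4. Of all protein-coding genes tested there, 16.6% were called higher and 7.13% lower, shares that depend on scaling. The list was chosen with earlier results of these data known, so the E13.5 counts are no independent support. Onecut2 behaved like Cdx2, with 0.740 to 1.27 FPKM in the E13.5 Gata4hi libraries.

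On the Sox2hi side, all 4 Iroquois homeobox genes given here were more than 4-fold higher. Irx3 (ENSMUSG00000031734.13, chromosome 8, 91798525 to 91802067) was at 40.7 FPKM in Sox2hi and 2.01 FPKM in Gata4hi cells, a difference of -3.79 and the largest on that side among genes at 10 FPKM or more. Irx2 was at 31.6 and 2.26 FPKM, Irx5 at 24.4 and 2.29 FPKM, and Irx1 at 6.26 and 0.327 FPKM. The Sox2hi levels of Irx3 were much the same at E13.5, at 34.9, 36.7 and 37.9 FPKM, while the Gata4hi levels of Irx2 were higher there, at 7.88, 10.1 and 12.3 FPKM. Irx1 was at 1.97 to 2.85 FPKM in Sox2hi and 1.67 to 1.99 FPKM in Gata4hi cells at E13.5 and was not called there (limma, adjusted p = 0.421). Pitx1, a homeodomain factor also expressed in hindlimb and foregut, was at 131 and 22.6 FPKM. Tbx1, a T-box factor of the pharyngeal region, was at 4.13 and 0.157 FPKM. Nkx2-1, the homeodomain factor that specifies lung and thyroid, was at 3.89 FPKM in the Sox2hi library and listed at 0 in the Gata4hi library. It did not exceed 0.0545 FPKM in any E13.5 epithelial library. Of the lung and trachea markers, Nkx2-1 and Etv5 alone reached 1 FPKM at E11.5, and Sftpc, Sftpb, Lamp3 and Scgb3a2 did not. Meis2, a TALE homeodomain factor, went the other way within the same foregut list, at 24.7 and 103 FPKM. Of the 21 foregut and squamous transcription factors at 1 FPKM or more, 8 were at least 2-fold lower in Gata4hi cells and 4 higher, with a median of -0.34. The shares over all genes compared were 2.86% lower and 3.97% higher.

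**Figure D2:**
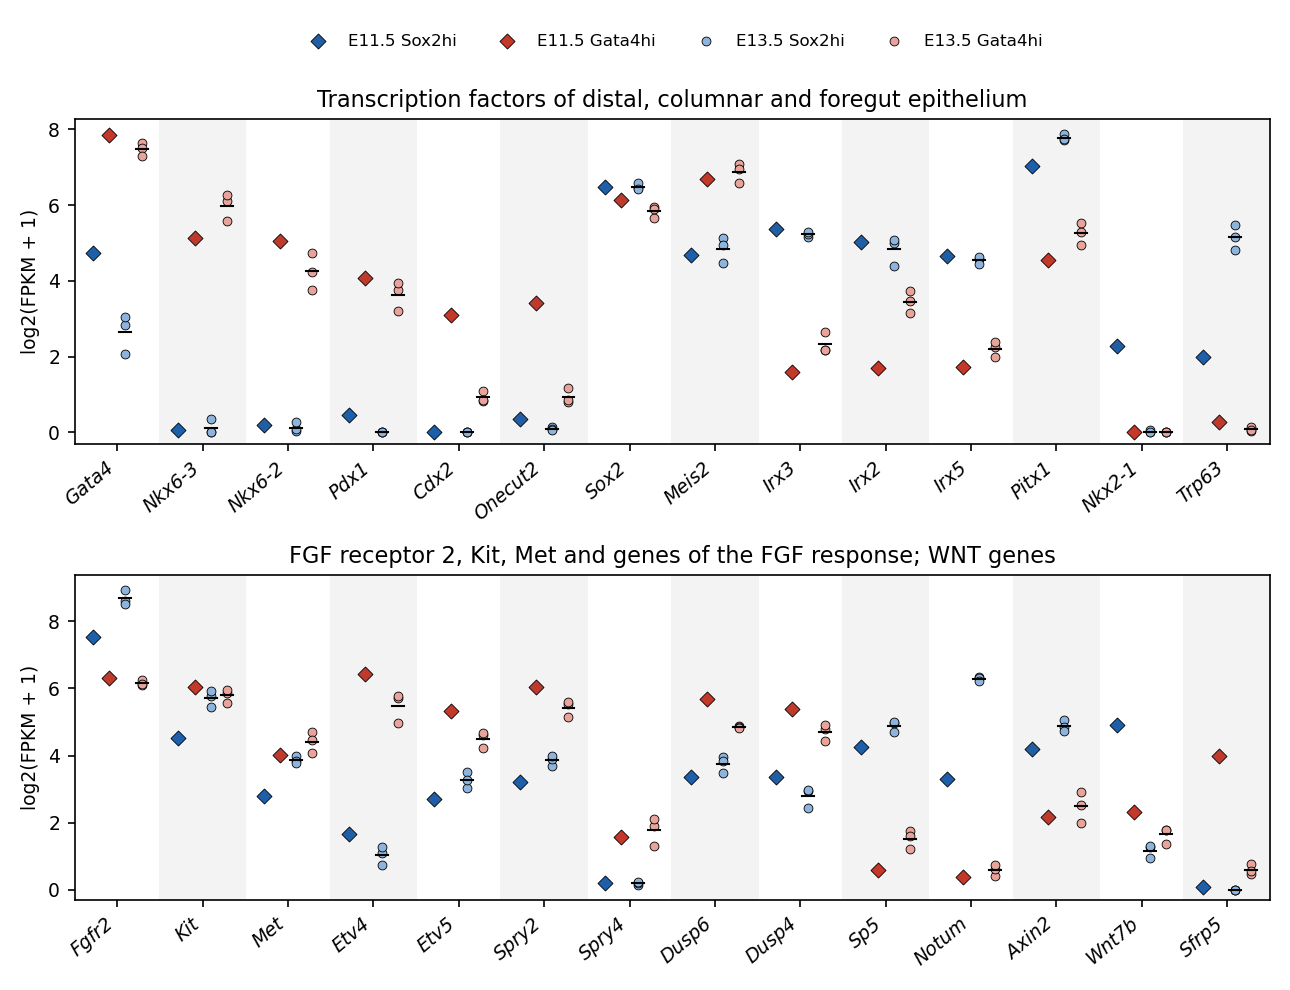
Level of patterning genes in each library on log2(FPKM + 1), with diamonds for the single E11.5 libraries, circles for the 3 libraries of each population at E13.5 and bars for their means. Nkx6-3, Nkx6-2 and Pdx1 are near 0 in Sox2hi cells at both stages, Trp63 and Notum are much higher in Sox2hi cells at E13.5 than at E11.5, and Cdx2, Onecut2, Nkx2-1, Wnt7b and Sfrp5 are high in 1 library of the E11.5 pair and low in all circles.

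The squamous program was little developed. Trp63, the master regulator of stratified squamous epithelium, was at 2.95 FPKM in Sox2hi and 0.202 FPKM in Gata4hi cells at E11.5, against 27.1 to 43.7 FPKM in the E13.5 Sox2hi libraries. The basal keratin Krt15 was at 12.6 and 5.58 FPKM, against 98 to 132 FPKM in E13.5 Sox2hi cells, and Krt5 was at 2.98 and 1.19 FPKM. Of 14 basal-layer genes at 1 FPKM or more, 3 (Trp63, Krt15 and the cadherin Cdh3) were at least 2-fold lower in Gata4hi cells, and the integrin Itga6 was higher, at 62.3 and 148 FPKM. Their median difference was -0.34. At E13.5 limma called 11 of 15 tested basal-layer genes lower in Gata4hi cells and 1 higher, with a median of -2.02. Over all protein-coding genes tested, 7.13% were called lower and 16.6% higher. The carbonic anhydrase Car4 and the proteoglycans Dcn and Fmod were already apart at E11.5, Car4 at 6.95 and 0.956 FPKM, Dcn at 6.51 and 0.694 FPKM and Fmod at 6.32 and 0.201 FPKM. Car4 stood at 51.9 to 101 FPKM and Dcn at 57.1 to 97.4 FPKM in the E13.5 Sox2hi libraries. Dcn is also a fibroblast gene. The 15 mesenchymal markers, Dcn among them, summed to 35.6 FPKM in the Sox2hi library and 55.7 FPKM in the Gata4hi library. Vim was the most abundant, at 19.2 and 33.5 FPKM. Of the 10 at 1 FPKM or more, Dcn was at least 2-fold lower in Gata4hi cells. Col1a1, at 1.12 and 4.14 FPKM, and Pdgfra were the 2 at least 2-fold higher. The part of fibroblasts in these values was not tested. Krt7, a keratin of the transitional epithelium, was at 109 and 79.5 FPKM, within 2-fold.

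Several products of the glandular stomach were higher in Gata4hi cells, while 16 of the 28 listed did not reach 1 FPKM in either library. Nepn (ENSMUSG00000038624.13, chromosome 10, 52388972 to 52404625), which encodes a secreted leucine-rich repeat protein, had the largest difference of all genes, with 0.366 FPKM in the Sox2hi and 200 FPKM in the Gata4hi library, a difference of 7.20. At E13.5 it was listed at 0, 0.514 and 1.0 FPKM in Sox2hi and at 214 to 317 FPKM in Gata4hi cells. The tetraspanin gene Tspan8 was at 5.88 and 79.1 FPKM. Agr2, a disulfide isomerase of mucus-secreting cells, was at 0.260 and 10.4 FPKM, and at 71.1 to 82.2 FPKM in E13.5 Gata4hi cells. The lectin Lgals4 was at 1.43 and 8.28 FPKM, and the actin-bundling gene Vil1 of the brush border at 0.673 and 4.22 FPKM. Of 12 glandular products at 1 FPKM or more, 7 were at least 2-fold higher and none lower, with a median of 1.79. The shares over all genes compared were 3.97% higher and 2.86% lower. The claudin gene Cldn18, a columnar marker of the study, was among the 16, at 0.977 and 0.387 FPKM, and was at 0 to 0.189 and 13 to 20.6 FPKM at E13.5. Cym, which encodes the milk-clotting protease chymosin, was at 9.26 and 16.7 FPKM. The hormone genes Ghrl, at 1.42 and 9.40 FPKM, and Pyy, at 1.47 and 6.28 FPKM, were the 2 of 7 endocrine genes past 2-fold.

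Promoter sequences are shown for 3 genes with large differences, as RefSeq gives them on GRCm38.p6, from 250 bases before to 50 bases after the start. Letters of GATA sites (AGATAA or TGATAA or AGATAG or TGATAG, on either strand) are in capitals for Nkx6-2 (chr7:139582748-139583047, minus strand) and Nepn (chr10:52391358-52391657, plus strand), and the TCF/LEF letters (CTTTGAT or CTTTGAA, on either strand) for the WNT target Sp5 (chr2:70474673-70474972, plus strand). The RefSeq start used for Nepn lies 2636 bases from the start of the gene in GENCODE M21.
Nkx6-2: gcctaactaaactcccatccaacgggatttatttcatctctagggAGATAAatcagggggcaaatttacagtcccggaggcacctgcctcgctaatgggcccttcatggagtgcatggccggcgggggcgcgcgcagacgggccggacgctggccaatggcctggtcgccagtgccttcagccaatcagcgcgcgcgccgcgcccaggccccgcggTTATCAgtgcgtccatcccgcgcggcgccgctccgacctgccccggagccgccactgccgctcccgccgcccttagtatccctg
Nepn: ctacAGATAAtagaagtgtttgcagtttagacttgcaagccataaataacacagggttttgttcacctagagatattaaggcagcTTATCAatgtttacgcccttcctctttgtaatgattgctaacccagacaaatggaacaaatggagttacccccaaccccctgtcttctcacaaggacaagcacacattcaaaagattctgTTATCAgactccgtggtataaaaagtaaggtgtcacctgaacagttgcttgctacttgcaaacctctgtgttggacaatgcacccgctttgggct
Sp5: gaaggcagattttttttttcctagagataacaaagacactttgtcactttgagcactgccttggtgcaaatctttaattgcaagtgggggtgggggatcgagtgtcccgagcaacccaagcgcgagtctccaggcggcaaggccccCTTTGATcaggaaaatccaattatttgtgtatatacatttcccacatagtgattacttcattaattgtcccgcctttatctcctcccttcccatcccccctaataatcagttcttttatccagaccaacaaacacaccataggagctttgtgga
The window of Nkx6-2 held 2 GATA matches and that of Nepn 3, and that of Sp5 held 1 TCF/LEF match. The Sp5 window also held 2 GATA matches, in lower case here, although Sp5 was lower in Gata4hi cells. The windows of Pdx1, Ihh and Spry2, all higher in Gata4hi cells, held 0 GATA matches. The promoter table matched 44 of the 81 genes 4-fold higher and 39 of the 57 genes 4-fold lower. GATA letters stood in 22.7% of the former, in 25.6% of the latter and in 17.3% of the promoters of all 8901 matched genes. SOX letters (CATTGT or CTTTGT, on either strand, of which the second shares CTTTG with the TCF/LEF letters) stood in 34.1%, 23.1% and 18.9%, and TCF/LEF letters in 6.82%, 5.13% and 5.52%. A match is a description of letters and not of binding.

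Several genes of the FGF response and its feedback were higher in Gata4hi cells, while the receptor gene Fgfr2 was lower. Signalling itself was not measured in these libraries. By staining, the study found phosphorylated ERK widely in the proximal epithelium at E11.5 and E13.5. It relates Spry2, Dusp4 and Dusp6 to negative regulation of the cascade in Gata4hi cells. Spred1 of the same list went the other way, within 2-fold, at 46.9 and 24.6 FPKM. Etv4 (ENSMUSG00000017724.14, chromosome 11, 101769742 to 101785371), an ETS factor induced by FGF signals, was at 2.14 FPKM in the Sox2hi and 84.7 FPKM in the Gata4hi library, a difference of 4.77. Etv5 was at 5.47 and 39.5 FPKM. Spry2, a feedback inhibitor of receptor signalling, was at 8.26 and 65.6 FPKM, and the ERK phosphatase genes Dusp6 and Dusp4 were at 9.30 and 50.6 FPKM and at 9.26 and 41.3 FPKM. All of these were lower in the E13.5 Gata4hi libraries than in the E11.5 Gata4hi library, Spry2 for example at 45.9, 47.2 and 34.3 FPKM and Etv4 at 51.5, 53.9 and 30.5 FPKM. Spry1, Spry4 and Spred2 were past 2-fold as well, as were the ligand genes Fgf9, at 3.27 and 9.15 FPKM, and Fgf20, at 0.915 and 3.19 FPKM. Of 18 FGF ligands and feedback genes at 1 FPKM or more, 10 were at least 2-fold higher in Gata4hi cells and 1, Fgfbp1, lower, with a median of 1.19. The shares over all genes compared were 3.97% higher and 2.86% lower. At E13.5 limma called 11 of 20 tested members higher and 3 lower, with a median of 0.92, against 16.6% and 7.13% of all protein-coding genes tested. Spry1 (limma, adjusted p = 0.486) and Spred2 (limma, adjusted p = 0.121) were past 2-fold at E11.5 and were not called at E13.5.

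Fgfr2 was at 185 FPKM in Sox2hi and 77.7 FPKM in Gata4hi cells, a difference of -1.24. Over all genes compared, 2.86% were at least 2-fold lower in Gata4hi cells. Fgfr2 was the only such gene among 26 receptor tyrosine kinase genes at 1 FPKM or more, a count near that share. At E13.5 it was at 385, 368 and 485 FPKM in Sox2hi and 75.9, 67.5 and 69.5 FPKM in Gata4hi cells, a difference of -2.51 ± 0.11 (SE, 3 libraries each; limma, adjusted p = 1.13e-05). The Gata4hi level was thus alike at both stages, and the Sox2hi level was higher at E13.5. The receptor gene Kit was at 21.9 and 65.6 FPKM at E11.5, and at 42.4 to 59.6 and 46.5 to 61.1 FPKM at E13.5, where it was not called (limma, adjusted p = 0.823). Met, the receptor of hepatocyte growth factor, was at 5.93 and 15.1 FPKM, and the Eph receptor genes Epha4 and Epha7 at 3.54 and 10.8 FPKM and at 4.34 and 11.3 FPKM. Pdgfra, a fibroblast marker, was at 0.729 and 2.65 FPKM.

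WNT target genes and antagonists divided in the opposite way. Sp5 (ENSMUSG00000075304.2, chromosome 2, 70474923 to 70477729), a zinc-finger factor and direct WNT target, was at 18 FPKM in Sox2hi and 0.520 FPKM in Gata4hi cells. Notum, which encodes an enzyme that inactivates WNT proteins, was at 8.85 and 0.301 FPKM, Axin2 at 17.4 and 3.51 FPKM, and Nkd1 at 7.16 and 0.970 FPKM. The E13.5 Sox2hi libraries held 74.2 to 80.1 FPKM of Notum, so its Sox2hi level was far below that of E13.5. Rnf43, Tcf7, Lef1 and Ccnd1 were also at least 2-fold lower in Gata4hi cells. At E13.5 limma called 10 of 16 tested members of this list lower and 4 higher, against 7.13% and 16.6% of all protein-coding genes tested. Of 17 members at E11.5, 8 were lower and 3 higher, with a median of -0.89, against 2.86% and 3.97% of all genes compared. The 3 that were higher were the factor Tcf7l2, at 31.2 and 81.2 FPKM, and the secreted inhibitors Sfrp1, at 1.85 and 13 FPKM, and Sfrp5 (ENSMUSG00000018822.7, chromosome 19, 42197971 to 42202252), at 0.0594 and 14.9 FPKM. Sfrp5 was listed at 0 in the E13.5 Sox2hi libraries and was at 0.388 to 0.712 FPKM in the E13.5 Gata4hi libraries, so the high level belonged to the E11.5 Gata4hi library. Among ligands, Wnt7b was at 29.1 and 3.97 FPKM, Wnt4 at 6.67 and 0.302 FPKM, and Wnt6 at 4.96 and 0.0429 FPKM. Among receptors, Fzd5 was at 12.8 and 53.0 FPKM, Fzd7 at 19.9 and 57.3 FPKM, and Ror2 at 6.44 and 37.6 FPKM.

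Wnt7b, Cckar and Syne1, which the study used as markers of the Sox2midGata4mid cells at E13.5, were on the Sox2hi side at E11.5. Cckar, the receptor gene of cholecystokinin, was at 17.8 and 3.38 FPKM, and Syne1, which encodes a nuclear envelope protein, at 9.49 and 3.02 FPKM. At E13.5 Wnt7b was at 7.07 and 7.13 FPKM in the Sox2midGata4mid libraries, at 0.924 to 1.45 FPKM in Sox2hi and at 1.6 to 2.47 FPKM in Gata4hi cells. None of the 3 was called between Sox2hi and Gata4hi cells at E13.5 (limma, adjusted p = 0.0972, 0.982 and 0.314). The series holds no Sox2midGata4mid library of E11.5, so the level of these genes in such cells at that stage is unknown.

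In the hedgehog pathway the ligand genes differed in opposite directions. Ihh was at 5.44 FPKM in Sox2hi and 82.9 FPKM in Gata4hi cells, and Shh was at 83.0 and 51.8 FPKM. The receptor Ptch1, at 56.1 and 24.8 FPKM, and the mediator Gli3, at 12.4 and 4.08 FPKM, were lower in Gata4hi cells. For retinoic acid, the synthetic enzymes Aldh1a2, at 5.89 and 1.32 FPKM, and Rdh10, at 7.78 and 2.22 FPKM, and the receptor Rarb, at 34.9 and 15.3 FPKM, were lower, and 4 of 17 members were at least 2-fold lower and 2 higher. Of the BMP and TGF-beta genes, Inhbb, an activin subunit, was at 5.19 and 0.305 FPKM and the BMP antagonist Nog at 3.21 FPKM and listed at 0. Id4, an inhibitor of bHLH factors, was at 2.09 and 18.8 FPKM and Bmp7 at 6.79 and 26 FPKM. Bmp7 did not differ so at E13.5, with 21.2 to 28.1 FPKM in Sox2hi and 14.9 to 23.5 FPKM in Gata4hi cells. Of 10 Hox genes, Hoxc5, at 21.3 and 4.84 FPKM, and Hoxc4, at 38.6 and 14.7 FPKM, were at least 2-fold lower and none higher. Beside the counts of this paragraph, 2.86% of all genes compared were at least 2-fold lower and 3.97% higher.

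Some lists held few or no genes past 2-fold, where the share over all genes compared was 6.83%. None of 16 Notch genes and none of 21 glycolysis and hypoxia genes was past 2-fold. Of 26 cell cycle genes, Ccnd1 alone was, at 89.7 and 41.5 FPKM, and the proliferation marker Mki67 was at 57.2 and 53.9 FPKM. By the share over all genes, lists of this size hold few, so these counts do not set them apart.

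**Figure D3:**
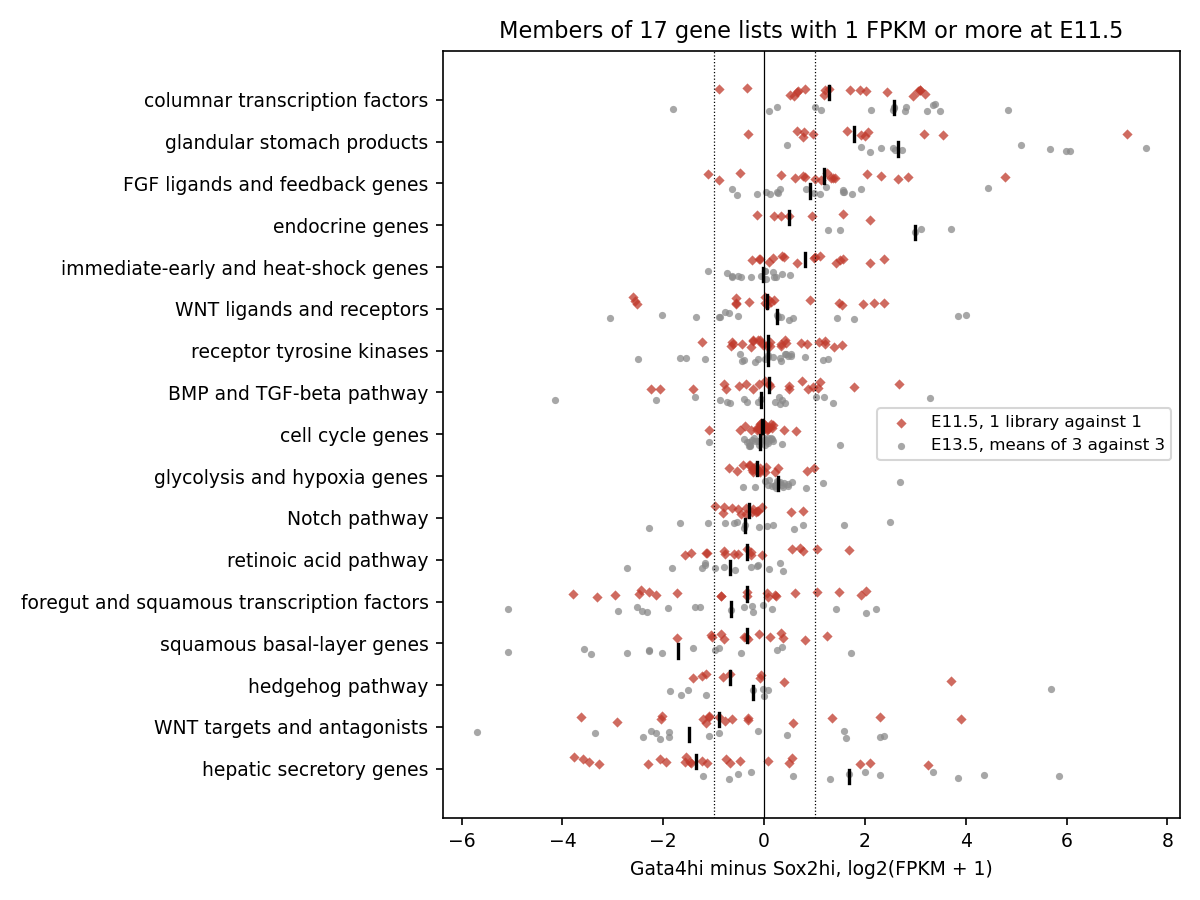
Difference Gata4hi minus Sox2hi, on log2(FPKM + 1), for members of 17 gene lists that reached 1 FPKM at E11.5, with red diamonds for E11.5 and grey circles for the same genes where tested at E13.5. Black bars are medians over the points drawn and dotted lines mark 2-fold; the hepatic list lies to the left at E11.5 and to the right at E13.5, where fewer of its members were tested, and the basal-layer list is nearer 0 at E11.5.

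Many genes of serum proteins were higher in the E11.5 Sox2hi library. Alb (albumin, ENSMUSG00000029368.10, chromosome 5, 90460897 to 90476602) was at 29.9 FPKM in the E11.5 Sox2hi library and 1.55 FPKM in the Gata4hi library, and Afp (alpha-fetoprotein, ENSMUSG00000054932.6, chromosome 5, 90490737 to 90508907) was at 65.5 and 4.99 FPKM. The apolipoprotein gene Apoa2 was at 14.3 and 0.120 FPKM, the corticosteroid-binding globulin gene Serpina6 at 11.3 and 0.264 FPKM, and transferrin (Trf) at 50.6 and 11.3 FPKM. Alb was listed at 0 in the 3 E13.5 Sox2hi libraries and at 0.0719 to 1.34 FPKM in Gata4hi cells. Other genes of the same list were on the Gata4hi side at both stages, Ttr at 14.3 and 64.6 FPKM and Ambp at 13.4 and 137 FPKM at E11.5. Of 22 hepatic secretory genes at 1 FPKM or more, 13 were at least 2-fold lower in Gata4hi cells and 3 higher, with a median of -1.35. The shares over all genes compared at E11.5 were 2.86% lower and 3.97% higher. At E13.5, limma called 8 of 14 tested members higher in Gata4hi cells and 2 lower, but these are largely other members. The shares over all protein-coding genes tested were 16.6% and 7.13%. Of the 13, 9 were not tested at E13.5, Afp and Trf were called higher, Apoc1 was called lower and Apoe was not called. Of 10 liver markers, 9 reached 1 FPKM at E11.5. Their sum was 158 FPKM in the Sox2hi and 132 FPKM in the Gata4hi library at E11.5, and 6.14 to 8.38 and 111 to 136 FPKM at E13.5. Of these markers, Fgb was at 1.94 and 0.0770 FPKM, Ahsg was at 1.19 FPKM and listed at 0, and Hnf4a was at 10.8 and 43.4 FPKM. The part of liver cells in these values was not tested.

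Embryonic globin genes were higher in the Gata4hi library. Hbb-y was at 0.818 and 34.7 FPKM and Hba-x at 0.534 and 18.7 FPKM, and both were listed at 0 in all 8 E13.5 epithelial libraries. Of 10 erythroid markers, 7 reached 1 FPKM and 5 were at least 2-fold higher. Their sum was 7.70 FPKM in the Sox2hi library and 80.2 FPKM in the Gata4hi library, against 0.277 to 0.555 and 0.331 to 0.536 FPKM at E13.5. Some globin genes are near-copies of one another, and how shared reads were assigned is not stated. No endothelial marker reached 1 FPKM. The part of blood cells in the comparison was not tested.

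Immediate-early genes were also higher in the Gata4hi library. Fos was at 35.1 and 154 FPKM and Fosb at 9.01 and 51.1 FPKM. At E13.5 Fos was at 64.8 to 105 FPKM in Sox2hi and 71.1 to 90.2 FPKM in Gata4hi cells, so the E11.5 Sox2hi library lay below and the E11.5 Gata4hi library above all 6. Of 16 immediate-early and heat-shock genes, 7 were at least 2-fold higher and none lower, with a median of 0.82, against 1 called higher, 1 called lower and a median of -0.02 at E13.5. Among all protein-coding genes tested at E13.5, 16.6% were called higher and 7.13% lower. The E13.5 calls were Zfp36 and Nr4a1, and with replicates paired by a block neither was called (limma, adjusted p = 0.0583 and 0.0609). The call of Zfp36 was also lost without any 1 library other than Gata4hi replicate 3 (limma, adjusted p of 0.0577 to 0.132). Egr1 was at 53.1 and 106 FPKM, and Jun, at 106 and 89.5 FPKM, did not follow. Immediate-early genes are induced by many stimuli, ERK signalling among them. The stomachs were also dissociated and the cells sorted before sequencing. The part of handling or of signalling in these values was not tested.

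**Figure D4:**
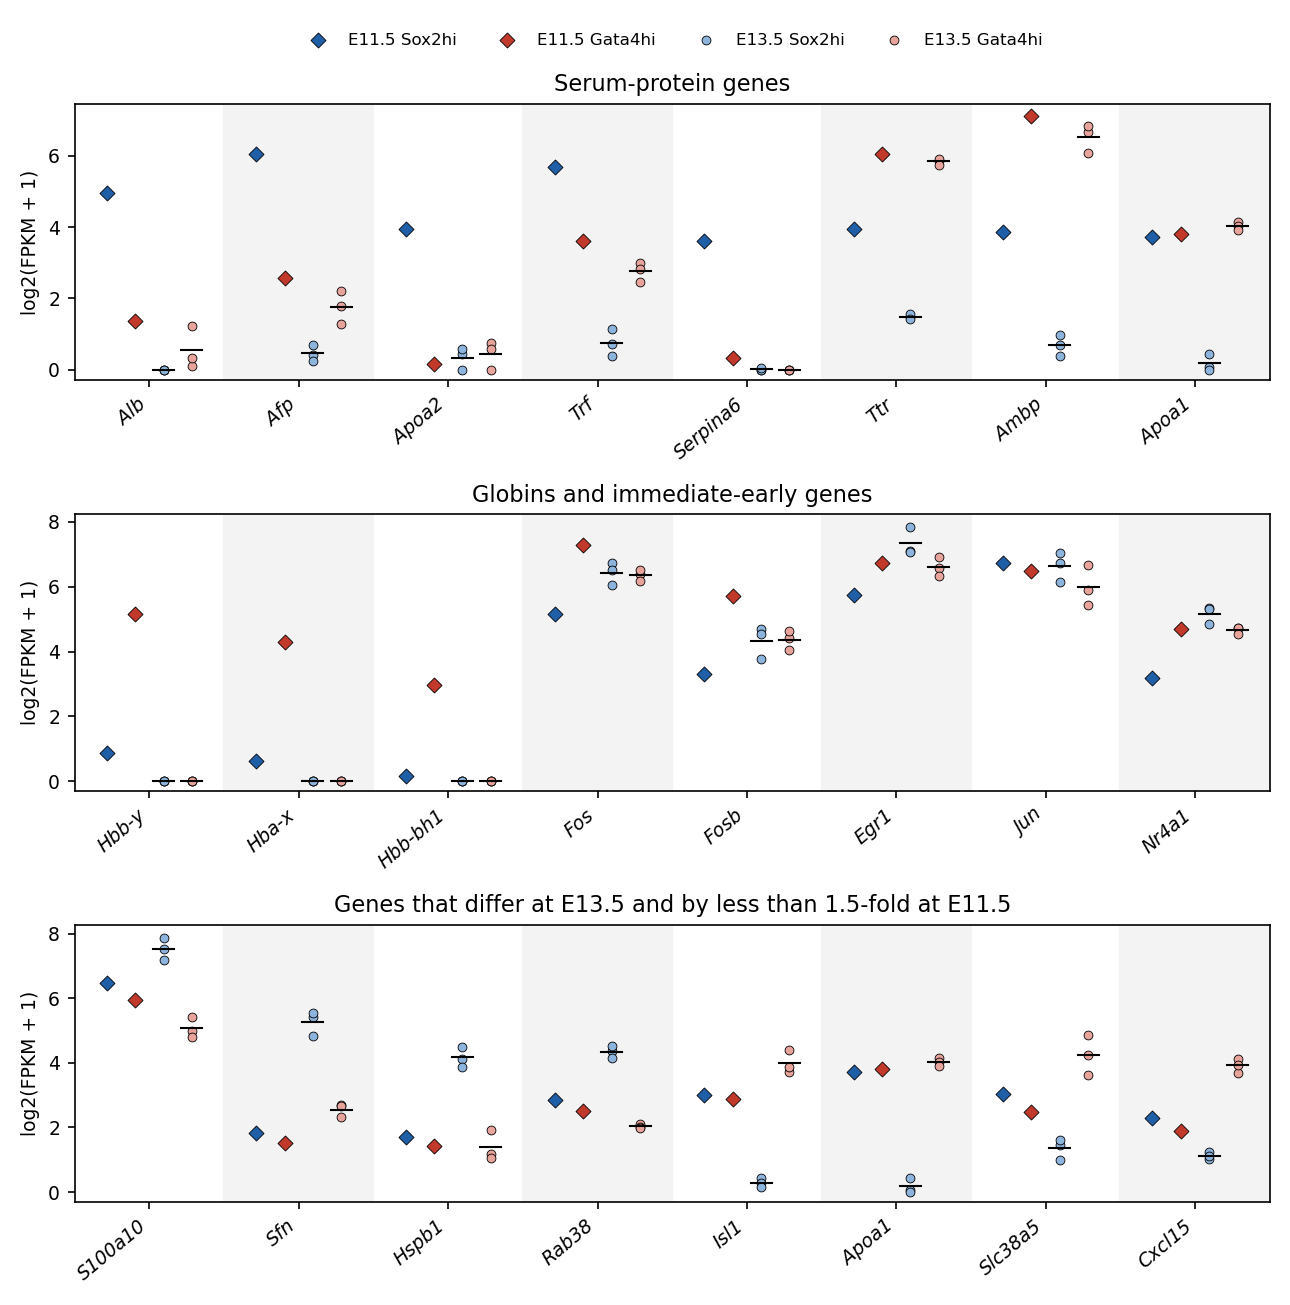
Level of serum-protein genes, globin and immediate-early genes, and genes that come apart later, in each library on log2(FPKM + 1), with diamonds for E11.5, circles for E13.5 and bars for means of 3. Alb, Afp and Serpina6 are high in the E11.5 Sox2hi library alone, globins in the E11.5 Gata4hi library alone, and Isl1 and Apoa1 are present in both E11.5 libraries and in E13.5 Gata4hi cells and low in E13.5 Sox2hi cells.

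To place the E11.5 differences, the same contrast was tested at E13.5 with limma on 13127 genes of all classes, with a gene called at an adjusted p under 0.05. Of 470 genes at least 2-fold higher in Gata4hi cells at E11.5, 388 were tested at E13.5 and 269 of these (69.3%) were called higher, against 16.6% of all protein-coding genes tested. A further 113 were not called and 6 were called lower. Of 339 genes at least 2-fold lower, 269 were tested and 152 (56.5%) were called lower, against 7.13% of all protein-coding genes tested, while 107 were not called and 10 were called higher. Among the genes past 4-fold, 62 of 68 tested were called higher and 35 of 47 were called lower. The E13.5 counts depend on scaling. Over all genes tested, 1955 were called higher and 879 lower on the values as deposited, and 1236 and 1359 after each library was scaled to the same sum, which moved the median difference of all genes from 0.08 to -0.05. On the values scaled in that way, 250 and 162 of the E11.5 genes were called in the same direction.

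Seen from E13.5, the differences were smaller at the earlier stage. Of 583 genes called higher and at least 2-fold apart at E13.5, 530 had the same sign at E11.5 and 229 (39.3%) were at least 2-fold higher, with a median difference of 0.84 at E11.5 and 1.59 at E13.5. Of 329 genes called lower and at least 2-fold apart, 300 had the same sign and 132 (40.1%) were at least 2-fold lower, with medians of -0.85 and -1.56. These genes were chosen by their E13.5 difference, which favours the larger value there. Over 11260 genes the Pearson correlation of the E11.5 and E13.5 differences was 0.596, given as a description.

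**Figure D5:**
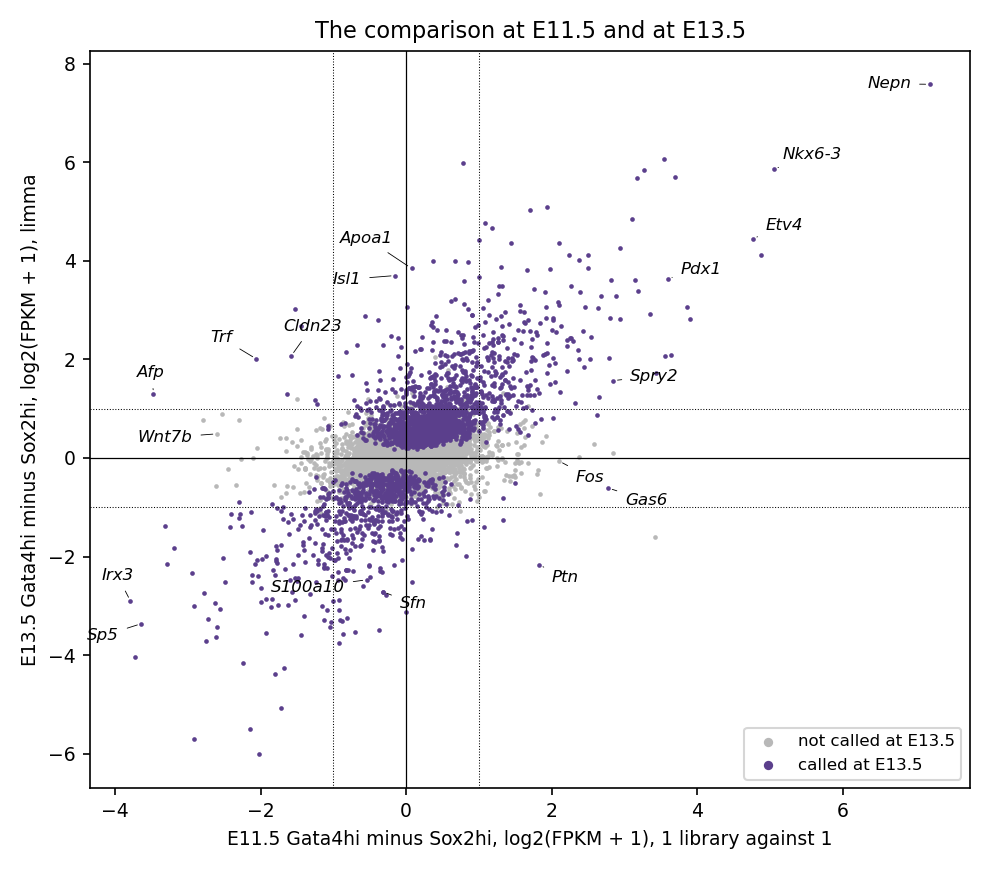
Difference Gata4hi minus Sox2hi of each gene at E11.5 (horizontal axis, 1 library against 1) and at E13.5 (vertical axis, limma, 3 against 3), both on log2(FPKM + 1), with purple for genes called at E13.5 and dotted lines at 2-fold. Nepn, Nkx6-3 and Etv4 lie far out at both stages, Isl1, Apoa1 and Sfn differ at E13.5 alone, and Afp, Trf, Cldn23, Ptn and Gas6 lie in quadrants of opposite sign.

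A set of genes came apart after E11.5. Among the genes called and at least 2-fold apart at E13.5, 186 that were higher in Gata4hi cells and 102 that were lower were less than 1.5-fold apart at E11.5. By this choice the levels must part between the stages, so the following counts are a description. For the 186, the Sox2hi level at E13.5 was at least 2-fold below that at E11.5 in 64 and above it in 1, and the Gata4hi level was at least 2-fold above in 30 and below in 8. Isl1, a LIM homeodomain factor, was at 7.11 and 6.33 FPKM at E11.5 and at 0.112 to 0.347 FPKM in Sox2hi and 12.2 to 20.0 FPKM in Gata4hi cells at E13.5. Apoa1 was at 12.2 and 12.9 FPKM, and at E13.5 at 0 to 0.365 and 14 to 16.8 FPKM. Myo16, an unconventional myosin gene, was at 18.6 and 24.3 FPKM and then at a mean of 1.14 ± 0.0247 FPKM (SD, n = 3) in Sox2hi and 33.5 ± 5.67 FPKM (SD, n = 3) in Gata4hi cells. These 3 genes were thus present in both populations at E11.5 and low in Sox2hi cells at E13.5. For the 102, the Sox2hi level was at least 2-fold above that of E11.5 in 46 and below in none, and the Gata4hi level was at least 2-fold below in 7 and above in 4. Of the protein-coding genes compared at E11.5, 11260 were also tested at E13.5. Among these the Sox2hi level was 2-fold lower at E13.5 in 3.61% and higher in 2.39%. The Gata4hi level was lower in 1.49% and higher in 1.86%. Sfn, which encodes 14-3-3 sigma of stratified epithelia, was at 2.57 and 1.86 FPKM at E11.5, and at 27.4 to 45.3 and 3.99 to 5.45 FPKM at E13.5. Hspb1, a small heat-shock protein gene, was at 2.23 and 1.67 FPKM and then at 13.7 to 21.6 and 1.06 to 2.82 FPKM. Stage and sequencing of single libraries cannot be told apart in these comparisons across stages.

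Other genes differed at E11.5 and did so in the opposite direction or not at all at E13.5. Ptn, the gene of the growth factor pleiotrophin, was at 4.96 and 20.2 FPKM at E11.5 and at 35.9 to 57.6 FPKM in Sox2hi and 8.11 to 11.2 FPKM in Gata4hi cells at E13.5, a difference of -2.17 ± 0.18 (SE, 3 libraries each; limma, adjusted p = 0.000157). The claudin gene Cldn23 was at 18.6 and 5.57 FPKM, and at E13.5 at 6.75 to 13.8 and 33.0 to 61.0 FPKM, a difference of 2.07 ± 0.28 (SE, 3 libraries each; limma, adjusted p = 0.00144). Cited1, a transcriptional co-regulator, was at 10.2 and 1.32 FPKM and at no more than 1.90 FPKM in the E13.5 Sox2hi and Gata4hi libraries. Nkx2-6 (ENSMUSG00000044186.10, chromosome 14, 69171802 to 69175518), a homeodomain gene of pharyngeal endoderm and heart, was at 0.378 and 11.7 FPKM and listed at 0 in all 6 of those libraries.

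Genes past 4-fold included 9 pairs that follow each other on a chromosome among protein-coding genes, and in each pair both differed in the same direction. On the Sox2hi side these were Irx3 and Irx5, Irx1 and Irx2, Alb and Afp, and Sp5 and Erich2. On the Gata4hi side they were Pdx1 and Cdx2, 24957 bases apart on chromosome 5, Kcnj11 and Abcc8, 3759 bases apart on chromosome 7, which encode the subunits of the ATP-sensitive potassium channel, Hbb-bh1 and Hbb-y, Etv4 and Meox1, and St8sia3 and Onecut2. The gaps of the 9 pairs ran from 3759 bases to 665097 bases, the latter between Irx1 and Irx2. For close pairs, reads that run from a gene into the next could not be told apart from its own in FPKM values. No share over all neighbouring genes was computed, so the number of pairs is a description.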

How the data were processed

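RNA was measured in 16 libraries, stranded polyA libraries of 50 ng of total RNA read as 75-base single reads. The authors deposited a table of FPKM values per gene, made with Cufflinks 2.2.1 after alignment to mm10 (GRCm38) by HISAT2 2.1.0 and trimming by cutadapt 1.16; annotation, filters, strand setting and normalization mode are not given in the sources used here. FPKM holds no counts, so read totals, counting intervals and detection limits are unknown. Of 53772 entries, 61 repeated identifiers were left out and 53711 genes were kept, of which 53614 matched GENCODE M21, and 27 symbols turned into dates were restored. Samples were grouped by their labels, and no value column was left without a sample.

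At E11.5, log2(FPKM + 1) was subtracted between the libraries. At E13.5, limma 3.58.1 in R 4.3.3 was fitted to all 8 epithelial libraries, with a mean of at least 1 FPKM, a variance trend and p-values adjusted by Benjamini-Hochberg; residual degrees of freedom were 5 and prior ones 2.69. The fit was tested on simulated data. Where nothing says that libraries came from separate embryos, p-values measure the spread between libraries only. Replicate numbers are shared between Sox2hi and Gata4hi libraries. Deviations from the group means correlated at 0.113, 0.119 and 0.163 for same-numbered libraries, and at -0.0993 to -0.0156 for others. Such deviations cancel within a group, so positive values for some pairs force negative ones for others. The correlations were weak, and no label states that same-numbered libraries came from the same embryos, so pairing was not settled. A fit with the replicate block was an alternative, besides other pseudocounts, minimums, scalings, sample sets and each replicate left out.

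The members and the 25 gene lists and 14 marker lists were chosen with earlier results of these data known. Named genes are those the study names, the 15 largest differences each way at 10 FPKM or more, up to 4 per list, and the 8 largest each way that differ at 1 stage alone or in opposite directions. Other genes, among them the receptor genes beyond those, the members of lists given by name and the neighbouring pairs, were chosen after their values were seen. Python 3.11.15, pandas 2.3.3 and numpy 2.4.6 were used.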

Additional observations from a re-analysis of the deposited data

Results flagged for a closer look

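For 6 named genes the E11.5 difference and the E13.5 call had opposite signs, with the E13.5 libraries of both populations apart; the difference between the stages was not tested. On log2(FPKM + 1), Ptn differed by 1.83 at E11.5 and by -2.17 at E13.5, Gas6, a ligand of TAM receptors, by 2.78 and -0.61, and Nr4a1, an immediate-early nuclear receptor, by 1.5 and -0.51. In the other direction, Afp differed by -3.47 and 1.30, Trf by -2.06 and 2.01, and Cldn23 by -1.58 and 2.07. The adjusted p-values at E13.5 (limma) were 0.000157 for Ptn, 0.0173 for Gas6, 0.0345 for Nr4a1, 0.0116 for Afp, 0.000782 for Trf and 0.00144 for Cldn23. Without 1 library, the adjusted p of Gas6 (limma) was 0.061 without Gata4hi replicate 1, 0.0585 without Gata4hi replicate 3, 0.0614 without Sox2hi replicate 1 and 0.0542 without Sox2hi replicate 3. For Nr4a1 the adjusted p (limma) was 0.077, 0.077 and 0.104 without Gata4hi replicates 1, 2 and 3, 0.113 and 0.103 without Sox2hi replicates 1 and 3, 0.0609 with the replicate block, 0.0602 with Sox2hi and Gata4hi libraries only, 0.0676 with no minimum and 0.0503 with no trend. The calls of Ptn, Afp, Trf and Cldn23 were lost in none of the runs that tested them. At a mean of at least 5 FPKM only 103 of 133 named genes were tested, and a gene left out there could not lose its call.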

How the results depend on the processing

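At E11.5, the counts of genes at least 2-fold higher and lower in Gata4hi cells (470 and 339) were 745 and 584 with a pseudocount of 0.1 FPKM, 171 and 95 with one of 5 FPKM, 530 and 516 on the TPM scale, 437 and 366 after centring on the median, 310 and 217 at 5 FPKM or more, 738 and 591 over all genes of the table, and 81 and 57 at 4-fold. At E13.5, the genes called by limma (1955 higher and 879 lower) became 1236 and 1359 on the TPM scale and 1297 and 1180 after quantile normalization. With replicates paired by a block they were 1997 and 887, and of 133 named genes Bpifb1 and Met gained a call and Cdkn1c, Nr4a1 and Zfp36 lost one. Leaving out 1 replicate gave 1371 to 1677 higher and 672 to 723 lower. The E11.5 genes called in the same direction (269 and 152) were 176 and 100 at a mean of at least 5 FPKM, where fewer genes were tested, and 243 to 260 and 133 to 145 with 1 replicate left out. Among the named genes no E11.5 difference past 2-fold and no E13.5 call changed sign under any alternative run.

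The E11.5 values rest on 1 library a population, so biological and technical spread cannot be separated. The Sox2hi library was the shallower, and levels under 1 FPKM there are imprecise. The strand setting of the quantification is not stated, so antisense and overlapping genes are uncertain.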

Other observations

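Other genes also had large differences between the E11.5 libraries. Sema3a, a repulsive guidance cue, was at 10.5 FPKM in Sox2hi and 0.676 FPKM in Gata4hi cells, and the basement membrane collagen gene Col18a1 was at 95.3 and 13.3 FPKM. Both stood apart in the same direction at E13.5, Sema3a at 10.4 to 13.4 and 0.612 to 1.40 FPKM and Col18a1 at 39.9 to 46.3 and 1.97 to 2.97 FPKM. Bpifb1, which encodes a secreted protein of airway and oral epithelium, was at 18.2 and 1.77 FPKM at E11.5 and at 5.43 to 6.02 and 8.16 to 16.7 FPKM at E13.5. St8sia3, a sialyltransferase gene, was at 1.13 and 30.8 FPKM at E11.5, and listed at 0 in E13.5 Sox2hi cells and at 3.29 to 10.1 FPKM in Gata4hi cells. Cdh6, a cadherin gene, was at 1.80 and 11.1 FPKM.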
